A study of Mus musculus with 4 samples.

Results

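The S100 and annexin genes studied here were 10 members of these families, named for their use as marks of effector T cells and taken by gene name: S100a4, S100a6, S100a10, S100a11, S100a13, Anxa1, Anxa2, Anxa4, Anxa5 and Anxa6. They are 10 of the 24087 genes measured, and all 10 were expressed highly enough to be tested. They were read in RNA-seq of splenic Treg cells that carried CD3, CD4 and the YFP reporter, from C57BL/6 mice. The KO group was Foxp3Cre-YFPSetd2f/f and the CTRL group littermate Foxp3Cre-YFPSetd2f/+, with 2 libraries each, and every library pooled the cells of 2 mice kept at steady state with no treatment named. Setd2, the methyltransferase that places H3K36me3, is deleted by the Cre only in cells that express Foxp3, and CTRL cells also lose 1 allele because they carry 1 floxed copy. The labels give no age. The cells were sorted as all YFP+ Treg cells, not as effector Treg cells, and the values are averages over each pool.

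S100 proteins are small calcium-binding proteins with EF-hand motifs. They work mostly as dimers that change shape when calcium rises and then bind other proteins. Annexins bind acidic membrane lipids in the presence of calcium and act in membrane repair, vesicle traffic and the link between membrane and actin. The families meet in complexes, of which S100a10 with Anxa2 and S100a11 with Anxa1 are the best known. Several of these genes are more abundant in antigen-experienced and effector T cells, including effector Treg cells, than in naive ones.

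Every member was higher in both KO libraries than in both CTRL libraries. Of the 10, 5 rose in KO (S100a6, S100a11, S100a13, Anxa2 and Anxa4), 0 fell and 5 did not pass the test (limma on log2(FPKM + 1), adjusted p under 0.05 over 11399 genes tested). Over all genes tested, 5.1% rose and 4.65% fell, and 29% had both KO libraries above both CTRL libraries, with 35.5% the other way round. The median log2 fold change of the members was 0.55, against -0.022 over all genes tested. The members were chosen with earlier results of these data known, so these contrasts with all genes are not independent of the data. S100a6 changed most, with a mean FPKM 2.24 times the CTRL mean. FPKM divides the fragments of a gene by its length and by library size, so levels can be set side by side between genes, and every log2 fold change below is on the log2(FPKM + 1) scale. At an unadjusted p under 0.05 by limma, 9 members were higher and 0 lower, all but Anxa5, where 16.3% of all genes tested were higher. By limma-voom on reads recovered from the FPKM, 6 members were called higher and 0 lower, against 7.61% of all genes called higher. With any 1 library left out, whichever it was, each member kept a positive fold change. This was fixed beforehand, because both KO libraries lay above both CTRL libraries for all 10 members. The fold changes of these fits are given with the alternatives below.

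**Figure D1:**
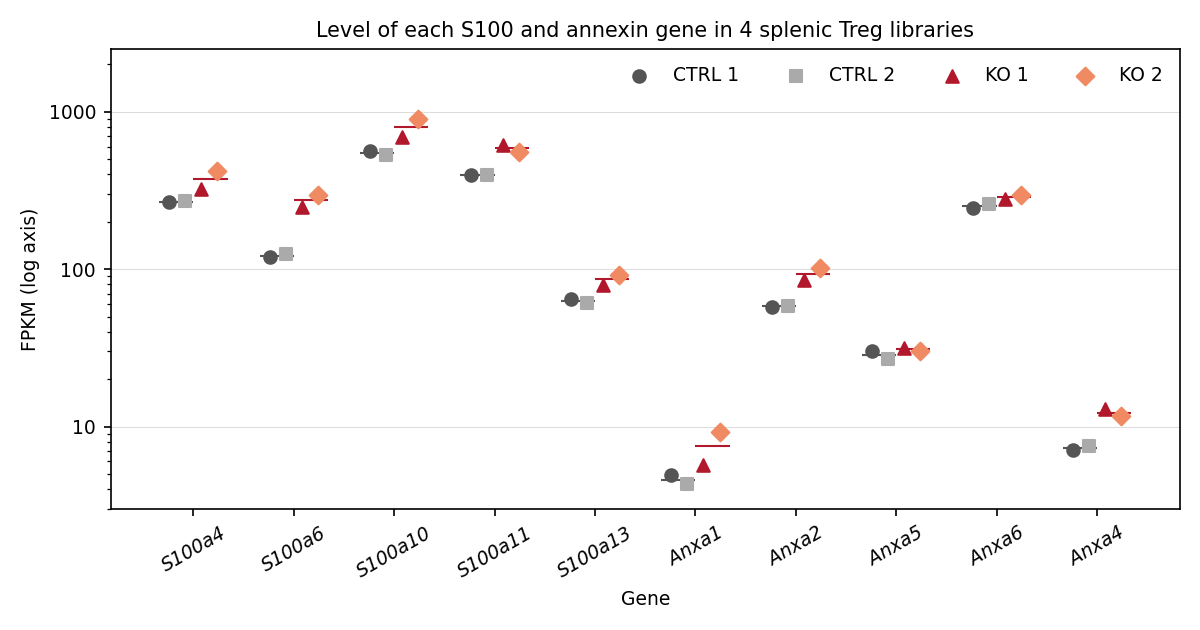
FPKM (log axis) of each of the 10 genes in the 4 libraries, with points for single libraries and short lines for the group means. Both KO points lie above both CTRL points for every gene, from Anxa1 at 4.30 to 9.28 FPKM up to S100a10 at 532 to 904 FPKM.

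As a check of the labels, Setd2 had 23.4 and 25.3 FPKM in the CTRL libraries and 21.3 and 19.5 in the KO libraries. Its log2 fold change was -0.24 (SE 0.076, limma adjusted p = 0.097), and the deposited value covers the whole gene, so the floxed part was not read by itself. The libraries held at least 29984837 to 32683452 reads each. Of the 7 Treg and T cell markers, Foxp3, Cd4 and Cd3e among them, none was at 0, and their summed level ran from 1895 to 2023 FPKM. Singly, 4 of the 7 had both KO libraries below both CTRL libraries and 1 above, against 35.5% and 29% of all genes tested. One of them, Il2ra, had 123 and 148 FPKM in CTRL and 95.4 and 117 in KO (limma adjusted p = 0.14). The other marker lists are given with the results they touch.

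The 200 bases before the start site were read for 8 of the 10 genes from a table of RefSeq promoters (GRCm38.p6), and those of S100a10 and Anxa6 were not used here. 4 windows that do not run far into an annotated exon are shown because they belong to genes with different outcomes: S100a6, S100a11 and Anxa4 rose, and S100a4, near S100a6 on the chromosome, did not pass the test. Each is written 5′ to 3′ and ends at the base before the start, and capitals mark matches to a TATA box (TATAAA), an AP-1 site (TGANTCA), a GC box (GGGCGG) or a CCAAT box (CCAAT), searched on both strands.
S100a4 (chr3:90603570-90603769, plus strand): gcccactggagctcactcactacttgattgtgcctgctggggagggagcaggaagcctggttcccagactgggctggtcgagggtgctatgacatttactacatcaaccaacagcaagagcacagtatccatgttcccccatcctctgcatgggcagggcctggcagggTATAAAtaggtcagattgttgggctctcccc
S100a6 (chr3:90612694-90612893, plus strand): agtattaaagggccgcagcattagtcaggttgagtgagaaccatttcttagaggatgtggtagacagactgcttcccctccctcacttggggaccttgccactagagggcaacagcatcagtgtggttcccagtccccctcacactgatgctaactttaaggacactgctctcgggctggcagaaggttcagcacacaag
S100a11 (chr3:93520296-93520495, plus strand): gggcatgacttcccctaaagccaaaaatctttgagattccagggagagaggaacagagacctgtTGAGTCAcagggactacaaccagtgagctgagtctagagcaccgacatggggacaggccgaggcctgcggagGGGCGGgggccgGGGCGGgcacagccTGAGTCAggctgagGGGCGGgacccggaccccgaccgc
Anxa4 (chr6:86793585-86793784, minus strand): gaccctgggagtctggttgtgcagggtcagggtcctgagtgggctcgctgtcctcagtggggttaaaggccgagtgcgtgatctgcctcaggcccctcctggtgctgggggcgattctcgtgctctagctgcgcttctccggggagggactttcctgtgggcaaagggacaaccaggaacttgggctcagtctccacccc
The S100a4 window held TATAAA 31 bases before the start. S100a11 had TGANTCA at 136 and 38 bases and GGGCGG at 64, 52 and 24 bases before the start. The S100a6 and Anxa4 windows held none of these letters. Among the windows not printed, Anxa2 had TATAAA at 17 bases, TGANTCA at 95 bases and GGGCGG at 190, 48 and 24 bases, Anxa1 had TATAAA at 32 bases, and S100a13 and Anxa5 had none. Of 32505 different RefSeq windows of this length, 9.89% held TATAAA, 5.47% TGANTCA, 31.3% GGGCGG and 29.3% CCAAT. The genes that rose thus had windows with several of these motifs (S100a11, Anxa2) and with none (S100a6, S100a13, Anxa4). The motifs were chosen after the sequences had been seen.

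All 5 S100 members lie on mouse chromosome 3 (GENCODE vM21, mm10), and each is protein-coding. S100a13 spans chr3:90514435-90524581, S100a4 chr3:90603771-90606045 and S100a6 chr3:90612882-90624181. S100a11 spans chr3:93520488-93526287 and S100a10 chr3:93555080-93564643. All are on the plus strand. The annexins are spread out, with Anxa5 on chr3:36448923-36475894 (minus), Anxa4 on chr6:86736840-86793584 (minus), Anxa2 on chr9:69453620-69491795 (plus), Anxa6 on chr11:54979108-55033445 (minus) and Anxa1 on chr19:20373428-20390944 (minus).

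In CTRL cells S100a10 was the most abundant member at 548 FPKM, above 98.9% of the genes tested. S100a11 (396 FPKM), S100a4 (269), Anxa6 (251) and S100a6 (122) followed. S100a13 (62.8), Anxa2 (58.1) and Anxa5 (28.4) lay in the middle, and Anxa4 (7.32) and Anxa1 (4.60, above 24.5% of the genes tested) were lowest. No pair of neighbours in this order overlapped between the CTRL libraries. In KO cells the ranges of Anxa6 and S100a6 overlapped, as did those of Anxa2 and S100a13, so their order there is not separated from the spread.

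S100a6, which encodes calcyclin, had 119.7 and 124.2 FPKM in the CTRL libraries and 248 and 298 in the KO libraries. The lower KO library was thus 2.04 times the CTRL mean, and the gap between the groups was far wider than the gap within either. Its log2 fold change was 1.15 (SE 0.098, 95% interval 0.90 to 1.40, limma adjusted p = 0.030). The CTRL mean was 121.9 ± 3.19 (SD, n = 2) and the KO mean 273 ± 35.2 (SD, n = 2), on at least 2822 and 7603 reads in the libraries with the fewest and the most.

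S100a11, the usual partner of Anxa1, had 395.4 and 395.9 FPKM in the CTRL libraries, against 617 in KO 1 and 557 in KO 2. It rose by 0.57 on the log2 scale (SE 0.070, 95% interval 0.39 to 0.74, limma adjusted p = 0.035), and unlike most members it was highest in KO 1. In GENCODE, 34.0% of the 100-base stretches of its transcripts also occur in the pseudogenes Gm12854 and Gm7665, so the share of reads counted for S100a11 is uncertain.

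S100a13, which takes part in the release of proteins that lack a signal peptide, had 64.7 and 61.0 FPKM in CTRL and 79.9 and 92.3 in KO. This was the smallest rise that passed the test, with a log2 fold change of 0.44 (SE 0.086, 95% interval 0.22 to 0.66, limma adjusted p = 0.043). It no longer passed under quantile normalization (limma adjusted p = 0.055) or with no intensity trend (0.064), and over all settings with the 4 libraries its adjusted p ran from 0.024 to 0.10.

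S100a10, the partner of Anxa2, had 565 and 532 FPKM in CTRL and 693 and 904 in KO. S100a4, which binds non-muscle myosin and is widely used as a mark of memory and effector T cells, had 268 and 271 FPKM in CTRL and 325 and 422 in KO. In both genes the groups did not overlap, but the KO libraries lay far apart, with KO 2 the higher. Their log2 fold changes were 0.53 (SE 0.13, 95% interval 0.18 to 0.87, limma adjusted p = 0.066) for S100a10 and 0.46 (SE 0.13, 0.13 to 0.79, 0.078) for S100a4. Without KO 2 these fell to 0.34 and 0.27. S100a4 overlaps Gm42674 on the same strand, and 41.9% of its 100-base stretches occur in Gm42674 as well, so reads of both cannot be fully told apart.

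Summed over the 5 S100 members, the CTRL libraries held 1412 and 1384 FPKM and the KO libraries 1964 and 2273. This was 0.302% and 0.297% of all FPKM in the CTRL libraries and 0.418% and 0.481% in the KO libraries. Within the sum the make-up shifted toward S100a6, whose level over that of S100a4 was 0.447 and 0.459 in CTRL and 0.764 and 0.707 in KO. These ratios are a description and were not tested.

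Among the annexins, Anxa2, which binds membranes and actin together with S100a10, had 57.9 and 58.2 FPKM in CTRL and 85.9 and 101.1 in KO. It rose by 0.67 on the log2 scale (SE 0.089, 95% interval 0.45 to 0.90, limma adjusted p = 0.035). The ratio of S100a10 to Anxa2 was 9.76 and 9.13 in CTRL and 8.07 and 8.93 in KO, a range of 8.07 to 9.76. The ratio of S100a11 to Anxa1 was 80.8 and 92.0 in CTRL and 108 and 60.0 in KO, so it ranged more widely between the KO libraries than between the groups. Neither ratio was tested. Gm16144 on the other strand and Mir3109 on the same strand overlap Anxa2.

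Anxa4, a calcium-dependent binder of phospholipids best known from epithelia, had 7.08 and 7.57 FPKM in CTRL and 12.8 and 11.7 in KO. It is a weakly expressed member, with at least 465 to 908 reads, yet its libraries lay close within each group. Its log2 fold change was 0.67 (SE 0.083, 95% interval 0.46 to 0.88, limma adjusted p = 0.035). Gm44036 overlaps it on the other strand.

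Anxa1, the ligand of formyl peptide receptors, had 4.90 and 4.30 FPKM in CTRL and 5.71 and 9.28 in KO. KO 1 stood much nearer to the CTRL libraries than to KO 2. Its log2 fold change was 0.57 with a wide error (SE 0.21, 95% interval 0.021 to 1.12, limma adjusted p = 0.13), and it was 0.26 without KO 2. The gene 1500015L24Rik overlaps it on the other strand.

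Anxa6, a large annexin tied to membrane cholesterol and calcium signalling, had 244 and 259 FPKM in CTRL and 280.2 and 296 in KO, a log2 fold change of 0.20 (SE 0.062, 95% interval 0.037 to 0.36, limma adjusted p = 0.098). Under quantile normalization the value for Anxa6 was 0.065 (limma adjusted p = 0.50). Anxa5, which binds phosphatidylserine, had 30.1 and 26.8 FPKM in CTRL and 31.5 and 30.3 in KO. Here the higher CTRL library nearly reached the lower KO library, and the log2 fold change of 0.12 (SE 0.077, 95% interval -0.077 to 0.32, limma adjusted p = 0.32) did not pass the test. The interval allows no change as well as a small rise. Mir7009 overlaps Anxa5 on the same strand. Anxa6, at 98.0% in the order of CTRL levels, carried most of the annexin sum, which was 344 and 356 FPKM in CTRL and 416 and 449 in KO.

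**Figure D2:**
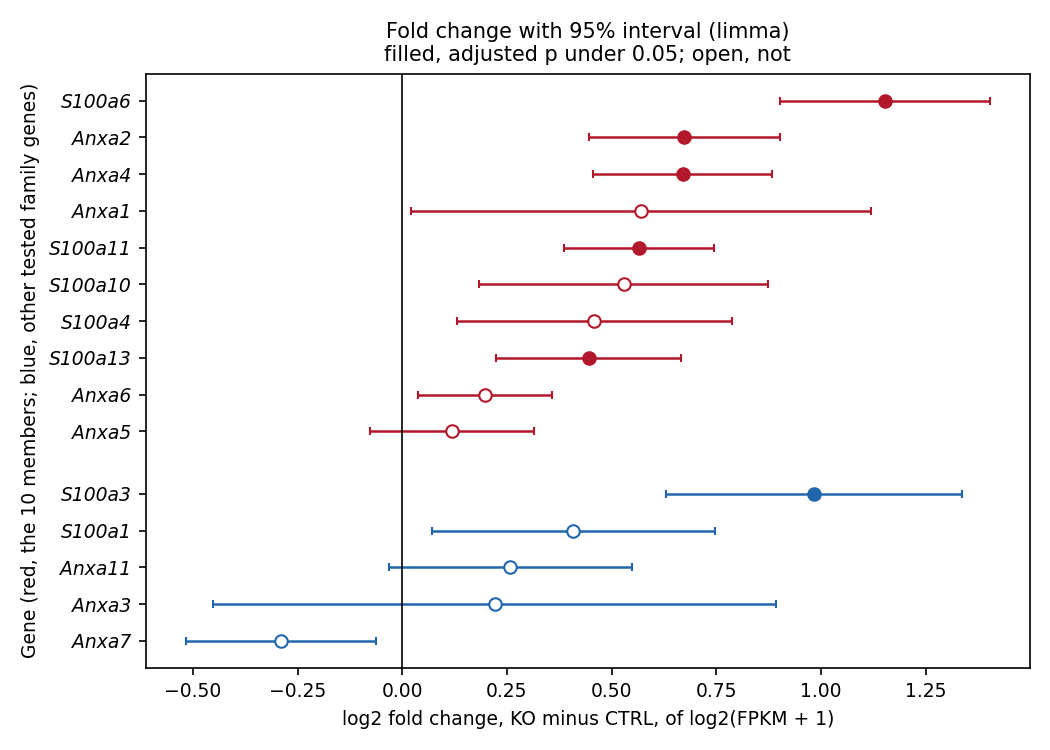
Log2 fold change (KO minus CTRL, horizontal axis) with its 95% interval for the 10 members in red and 5 other tested family genes in blue, with filled points for adjusted p under 0.05. S100a6 lies highest of the members at 1.15, Anxa5 lies lowest of the members at 0.12 with an interval across 0, and Anxa7 is the gene plotted below 0. S100a8 and S100a9 are left out because their intervals are several times wider.

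The members differed in which KO library was higher. KO 2 was above KO 1 for S100a4, S100a6, S100a10, S100a13, Anxa1, Anxa2 and Anxa6, and KO 1 was above KO 2 for S100a11, Anxa4 and Anxa5. Over all genes tested, KO 2 was above KO 1 for 53.6%. Summed myeloid markers (15 genes, S100a8 and S100a9 among them) were 338 and 225 FPKM in the CTRL libraries, 405 in KO 1 and 176 in KO 2. KO 1 thus had the highest myeloid sum and KO 2 the lowest, and the part of myeloid RNA in the members' levels was not tested. The myeloid markers Mpo, Elane, Ly6g, Retnlg and S100a8 were at 0 in CTRL 2, and Retnlg in KO 2. Of the other marker lists, B cell markers summed to 18.8 to 32.8 FPKM, erythroid to 4.16 to 38.4, CD8 T cell to 8.49 to 11.4, platelet to 4.32 to 5.48 and NK cell to 4.02 to 4.71, and 0 of the 31 marker genes tested passed the test by limma or by limma-voom, with 2 higher and 4 lower at an unadjusted p under 0.05 by limma. In these bulk samples, fewer cells of a type and less RNA per cell cannot be told apart, and the same holds for a larger share of effector cells and more RNA of these genes per cell.

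**Figure D3:**
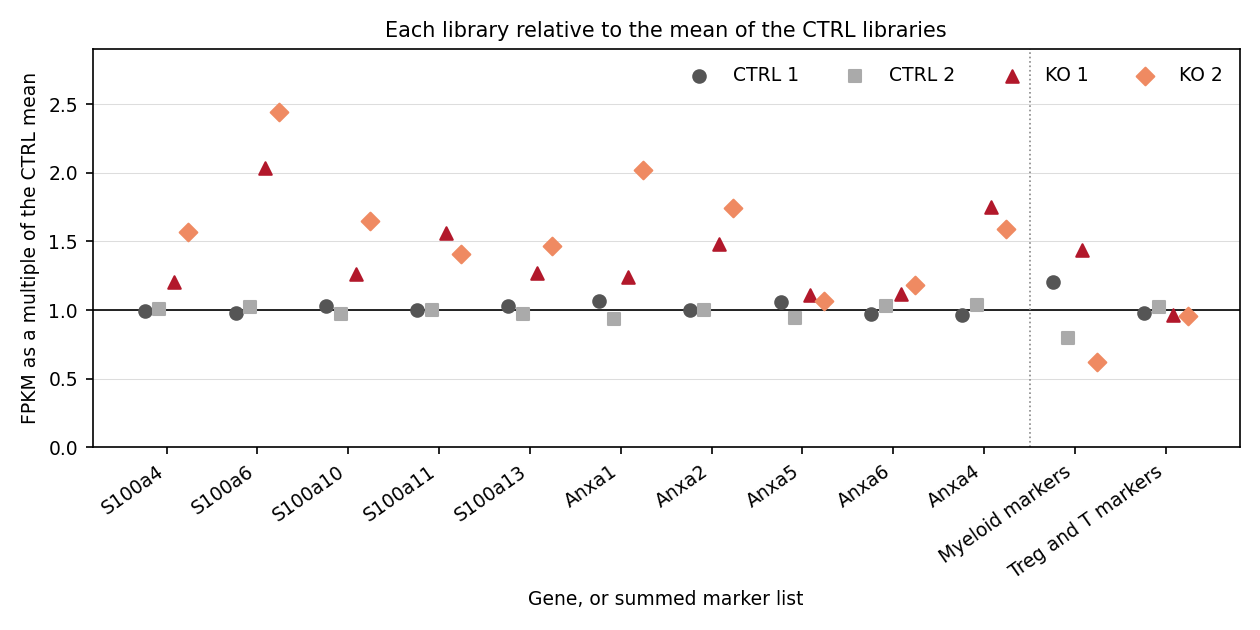
FPKM in each library as a multiple of the CTRL mean (vertical axis, linear from 0) for the 10 members, for the summed myeloid markers and for the summed Treg and T cell markers. The members lie at 1.07 to 2.45 in the KO libraries, whereas the myeloid sum is 1.44 in KO 1 and 0.623 in KO 2, and the Treg and T cell sum stays between 0.955 and 1.02 in all 4.

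Outside the members, 18 further genes of both families were measured, of which 7 were tested, 1 rose and 0 fell. S100a3 rose from 0.813 and 0.608 FPKM in CTRL to 2.19 and 2.57 in KO (log2 fold change 0.98, SE 0.14, limma adjusted p = 0.035), on at least 15 to 65 reads. At this level the value depends on the pseudocount: it was 1.62 with a pseudocount of 0.1 and 1.72 by limma-voom, and the KO mean was 3.35 times the CTRL mean. It overlaps S100a2, Gm42674 and Gm23464, so its reads are uncertain. S100a1, which in the annotation starts 43 bases from S100a13 on the opposite strand, had 3.37 and 2.63 FPKM in CTRL and 4.01 and 4.59 in KO (log2 fold change 0.41, limma adjusted p = 0.10). S100a8 and S100a9, the subunits of neutrophil calprotectin, were high in 1 library of each group and near 0 in the other. S100a8 had 3.66 FPKM in the first CTRL library and was listed at 0 in the second, against 17.1 in KO 1 and 0.719 in KO 2. S100a9 had 5.68 and 0.118 FPKM in the same CTRL libraries, and 19.0 and 0.462 in KO.

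Of the other annexins, Anxa7 had 22.7 and 21.8 FPKM in CTRL and 16.7 and 19.4 in KO. It was the tested gene of either family with a negative log2 fold change, -0.29, and did not pass the test (limma adjusted p = 0.092). Anxa11 had 21.7 and 27.1 FPKM in CTRL and 28.8 and 29.5 in KO (0.26, limma adjusted p = 0.18), and Anxa3 1.18 and 0.524 against 1.54 and 0.777. Thus of 9 tested S100 genes 4 rose, with a median log2 fold change of 0.57, and of 8 tested annexin genes 2 rose, with a median of 0.24.

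The stretch of chromosome 3 from S100a1 to S100a10 (3054 kb) holds most S100 genes and, between its ends, the genes of epidermal differentiation. Of its 70 genes in the table, 9 passed the filter on low values, and all 9 were S100 genes. The other 57 genes outside the S100 family did not pass it. The tested S100 genes lie in groups at each end: S100a1, S100a13, S100a3, S100a4, S100a6, S100a8 and S100a9 at one, and S100a11 and S100a10, which begin 3006 and 3041 kb from S100a1, at the other. All 9 had positive log2 fold changes, from 0.41 to 1.37, though S100a8 and S100a9 turned negative without KO 1 (-0.33 and -0.90), and 7 of the 9 had both KO libraries above both CTRL libraries, the exceptions being S100a8 and S100a9. S100a4 and S100a6, which begin 89.4 and 98.5 kb from S100a1, had log2 fold changes of 0.46 and 1.15.

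**Figure D4:**
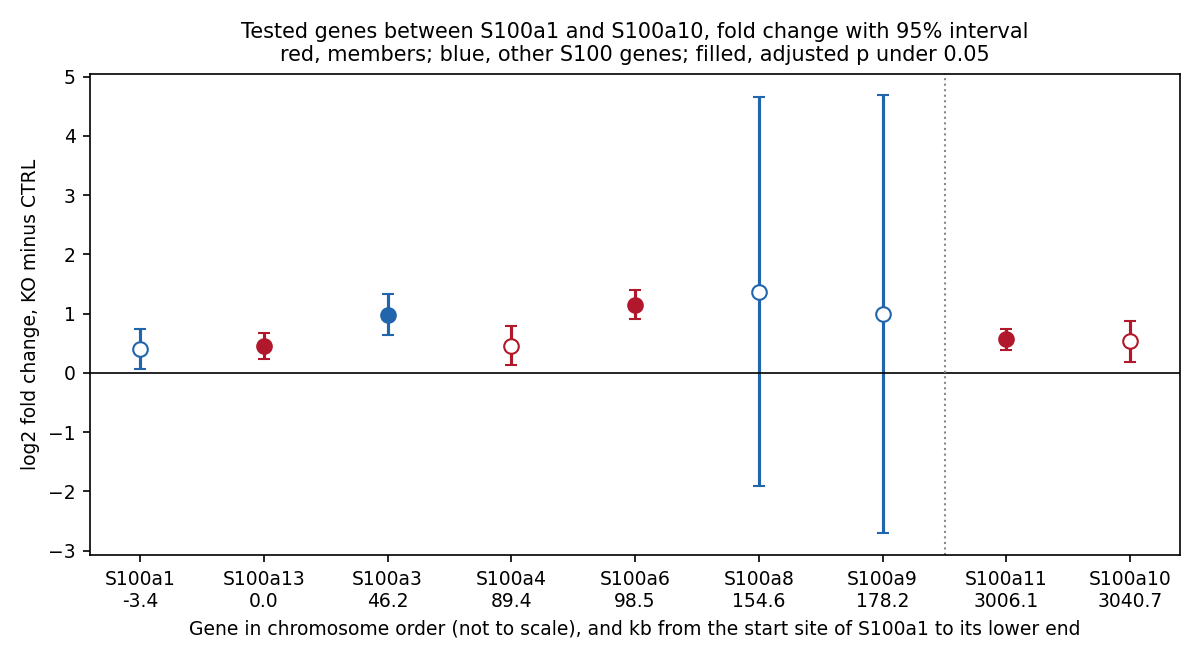
Log2 fold change with its 95% interval (vertical axis) of the 9 tested genes between S100a1 and S100a10, in chromosome order and not to scale, with the distance in kb under each name. Members are red, other S100 genes blue, and filled points passed the test. The points are positive at both ends of the stretch, and the intervals of S100a8 and S100a9 are much the widest, running from about -1.91 to 4.65 and from -2.71 to 4.68.

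Among genes that encode partners and receptors of these proteins, 21 were listed and 14 tested, of which 0 rose and 2 fell, with a median log2 fold change of -0.10. At an unadjusted p under 0.05 by limma, 0 were higher and 3 lower. By limma-voom, 0 were called higher and 3 lower, against 1024 of 11398 genes called lower over all. The share of all genes lower at an unadjusted p was not counted. Both KO libraries lay above both CTRL libraries for 4 of the 14 and below them for 4, against 29% and 35.5% of all genes tested. By the adjusted limma test, 4.65% of all genes tested fell. Ahnak, the giant scaffold that binds S100a10 and Anxa2, had 41.3 and 46.0 FPKM in CTRL and 29.7 and 30.1 in KO, and fell by 0.53 on the log2 scale (SE 0.072, limma adjusted p = 0.035). Rasa1, a Ras GTPase-activating protein that binds Anxa6, had 44.2 and 42.2 FPKM in CTRL and 33.1 and 32.5 in KO, and fell by 0.39 (SE 0.057, limma adjusted p = 0.035, or 0.0502 with no intensity trend), with Ccnh overlapping it on the other strand. So Ahnak and its partners S100a10 and Anxa2 had fold changes of opposite sign in the same libraries.

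Other calcium sensors and calcium-dependent membrane binders, such as calmodulins, calpains and copines, numbered 22. Of the 20 tested, 2 rose and 0 fell, with a median of 0.10, against 5.1%, 4.65% and -0.022 over all genes tested. Limma-voom called 5 higher and 0 lower, where 7.61% of all genes were called higher. At an unadjusted p under 0.05 by limma, 7 were higher and 1 lower, where 16.3% of all genes tested were higher. Cib1, an EF-hand protein that binds integrin tails, had 43.7 and 46.7 FPKM in CTRL and 65.1 and 63.6 in KO (log2 fold change 0.50, limma adjusted p = 0.035). Efhd2, an EF-hand protein that binds actin, had 26.8 and 24.9 in CTRL and 33.6 and 32.3 in KO (0.34, limma adjusted p = 0.044, or 0.063 with no intensity trend). The S100 median of 0.57 stands beside these values as a description, and the difference between lists was not tested.

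Of the genes that accompany S100a4 in effector T cells, all 16 listed were tested, 3 rose and 1 fell, and their median log2 fold change was 0.34. Over all genes tested, 5.1% rose and 4.65% fell. At an unadjusted p under 0.05 by limma, 10 were higher and 3 lower, where 16.3% of all genes tested were higher. Limma-voom called 6 higher and 1 lower, against 7.61% of all genes called higher and 1024 of 11398 called lower. Both KO libraries were above both CTRL libraries for 11 and below them for 3, against 29% and 35.5% of all genes tested. Lgals1, which encodes the secreted lectin galectin-1, had 279 and 269 FPKM in CTRL and 410.0 and 476 in KO (0.69, limma adjusted p = 0.035). Capg, an actin-capping protein, had 199 and 184 in CTRL and 249.8 and 263 in KO (0.42, limma adjusted p = 0.038), and Lgals3 21.9 and 19.2 in CTRL and 26.8 and 29.6 in KO (0.44, limma adjusted p = 0.049). The gene that fell was Ahnak, given above with the partners. With no intensity trend, Capg (limma adjusted p = 0.054) and Lgals3 (0.065) did not pass, and Lgals3 also missed the threshold with a pseudocount of 0.1 (0.0501).

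Exon length moved with the fold changes of all genes. In 5 groups of tested genes of nearly equal number, from the shortest to the longest, the median log2 fold change was 0.049, 0.030, -0.012, -0.051 and -0.096, and 7.64% of the shortest group rose against 2.46% of the longest. The S100 members have short transcripts, with summed exons of 511 bases in S100a11 to 1367 in S100a6, while the annexin members run from 1777 bases in Anxa5 to 4645 in Anxa4. With each library's trend against exon length removed, a setting added after the data had been seen, the log2 fold changes were 1.09 for S100a6, 0.58 for S100a11, 0.43 for S100a13, 0.68 for Anxa2 and 0.69 for Anxa4, and these 5 members still passed the test. Anxa5 moved from 0.12 to 0.057 and Setd2 from -0.24 to -0.15, and Efhd2 (limma adjusted p = 0.055) and Lgals3 (0.058) no longer passed. Ahnak moved from -0.53 to -0.36 (limma adjusted p = 0.046) and Rasa1 from -0.39 to -0.32 (0.044), and both still passed.

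**Figure D5:**
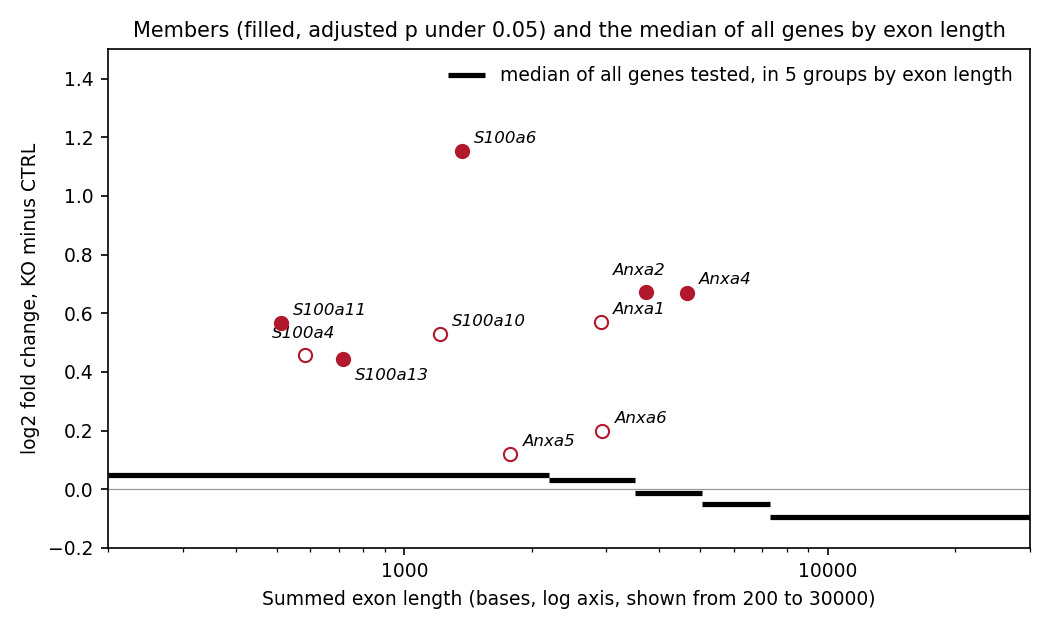
Log2 fold change of the 10 members (points, filled for adjusted p under 0.05) against summed exon length in bases (log axis), with black lines for the median of all tested genes in each of 5 groups by exon length. All members lie above the black lines, which run from 0.049 down to -0.096.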

How the data were processed

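RNA from 2 CTRL and 2 KO pools of splenic Treg cells, each from 2 mice, was enriched with oligo(dT) and sequenced in read pairs. Per the submitters' processing notes, HISAT2 2.2.1, featureCounts 2.0.1 and edgeR 3.34.0 were used on mm10. The deposited values were FPKM made by the authors for 24087 genes. The gene lengths used, strand and multi-mapped reads are not given in the sources used here. Columns named WT and a number were read as the CTRL libraries of that number.

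FPKM steps were whole multiples in 19887 of 19888 genes above 0 (99.995%, tolerance 0.002), which gave relative depths of 1 to 1.08 and lower bounds of reads. These bounds and all intervals say nothing of library preparation. KO was compared with CTRL by limma 3.58.1 (R 4.3.3) on log2(FPKM + 1), with eBayes and an intensity trend, two-sided, over the 11399 genes that reached an FPKM of 1 in 2 or more libraries, adjusted by Benjamini-Hochberg, threshold adjusted p under 0.05. Intervals are 95%. Replicates were separate pools of mice. Positions, exon lengths and overlaps came from GENCODE vM21, matched by gene identifier, and promoters from RefSeq. The 10 members, the gene lists and the motifs were chosen with earlier results of these data known. All members are named, as are tested genes of both families, and of the other lists those past the threshold, except 1 gene of the resting T cell list, which is not reported here but stays in the counts.

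Alternatives were another pseudocount, filters, scalings, variance models, a replicate block, limma-voom on the recovered reads, leaving out each library and, added after seeing the data, removal of the exon length trend. Reads were simulated for 24087 genes in 10 simulations of this comparison, with 200 genes changed by 1 on the log2 scale. Spread beyond counting noise (overdispersion) was set to 0.005. In these, 97.76% of changed genes were called. Of the calls, 11.17% were unchanged genes, above the rate that an adjusted p under 0.05 aims at. Smaller changes and wider spread were not simulated, so these shares do not carry over to genes with either. Python 3.11.15, numpy 2.4.6, pandas 2.3.3 and matplotlib 3.10.9 were used.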

Additional observations from a re-analysis of the deposited data

How the results depend on the processing

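The log2 fold changes of the 10 members were positive under all 15 alternatives. For the 4 that left out 1 library and for the other pseudocount this was fixed beforehand, because both KO libraries lay above both CTRL libraries for every member. The filters, variance models and replicate block leave the fold change as it is, so they could not turn a sign either. Only the scalings, limma-voom and removal of the exon length trend could have done so. With the test run on every gene detected in some library, which adds many low genes to the adjustment, 0 members and 0 genes in either direction passed the threshold, and S100a6 (1.15), S100a11 (0.57), S100a13 (0.44), Anxa2 (0.67) and Anxa4 (0.67) had adjusted p of 0.086 to 0.10 by limma. S100a13 also failed with quantile normalization (0.36) and with no trend (0.44). S100a10 passed with limma-voom on the recovered reads (0.52, adjusted p = 0.039). With 1 library left out, 0 members and 0 to 1 genes in each direction passed by limma, while the log2 fold changes ran from 1.02 to 1.28 for S100a6, 0.49 to 0.64 for S100a11, 0.34 to 0.55 for S100a13, 0.56 to 0.79 for Anxa2, 0.61 to 0.73 for Anxa4, 0.34 to 0.72 for S100a10, 0.27 to 0.65 for S100a4, 0.26 to 0.88 for Anxa1, 0.15 to 0.24 for Anxa6 and 0.039 to 0.20 for Anxa5. These fits have fewer samples, and a group of 1 was assumed to vary like the other. Among genes outside the members, the sign turned in these fits for Anxa3 (-0.039 to 0.48), S100a8 (-0.33 without KO 1, up to 3.06 without KO 2) and S100a9 (-0.90 without KO 1, up to 2.87 without KO 2). Over all genes, 581 rose and 530 fell. No trend gave 315 that rose, limma-voom 1024 that fell and removal of the exon length trend 324 that fell. The cause of these shifts was not tested.

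The labels do not say what a shared replicate number stands for, and numbers were not used to pair libraries in the reported fit. Both libraries numbered 1 had higher myeloid and erythroid marker sums (338 and 405, and 22.5 and 38.4 FPKM) than both numbered 2 (225 and 176, and 4.16 and 11.4). Deviations of same-numbered libraries from their group means correlated across genes with Pearson 0.342 and Spearman 0.055 (11399 genes, which are not independent replicates). With the replicate block in the fit, 7 members passed by limma, S100a4 (0.46, adjusted p = 0.029) and S100a10 (0.53, adjusted p = 0.032) in addition, and 968 genes rose and 805 fell. S100a8 (1.37) passed as well (adjusted p = 0.023).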

Other observations

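Genes of resting T cells were listed beside those that accompany S100a4. Of 11 listed and tested, 0 rose and 2 fell, with a median log2 fold change of -0.15. Over all genes tested, 5.1% rose and 4.65% fell, with a median of -0.022. At an unadjusted p under 0.05 by limma, 1 was higher and 4 lower, where 16.3% of all genes tested were higher. The share of all genes lower at this p was not counted. The higher gene was Igfbp4, with 73.8 and 69.1 FPKM in CTRL and 85.8 and 92.4 in KO (0.31, limma adjusted p = 0.051). Both KO libraries lay above both CTRL libraries for 1 gene and below them for 5, against 29% and 35.5% of all genes tested. By limma-voom, 1 was called higher and 4 lower, against 1024 of 11398 genes called lower over all. Il7r, the receptor for interleukin 7, had 67.1 and 61.6 FPKM in CTRL and 50.7 and 50.0 in KO and fell by 0.35 (SE 0.064, limma adjusted p = 0.042, or 0.063 with no intensity trend). Of the 11 genes, 9 did not pass the test.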
